A study of Homo sapiens with 4 samples.

Results

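TEAD4 occupancy was described over the 1.2 Mb of chromosome 1 that carry BCAR3, ARHGAP29, ABCD3 and F3 (band 1p22, 94 to 95.2 Mb on hg19). The data are TEAD4 chromatin immunoprecipitation sequencing (ChIP-seq) peak lists of MKN28 and SNU216, both human gastric cancer cell lines without a treatment or genetic change named in the labels. Each line gave 1 TEAD4 library, and the authors used 1 input library per line as the background of peak calling. A peak belonged to the region when its midpoint lay inside it, which held for 79 of 39477 MKN28 peaks and 31 of 11540 SNU216 peaks. The region was chosen by the number of MKN28 peaks it holds, so the MKN28 count is a description and nothing is supported with it. No group held replicates, so no difference between the lines could be tested, and intervals below cover counting error only. The lists give no read counts, so library depth is unknown. Expression was not measured, so the label of gastric cancer cells could not be checked against marker genes.

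TEAD4 is a DNA-binding factor that recruits YAP and TAZ, the co-activators restrained by Hippo signalling, and it often sits at distal enhancers together with AP-1 factors. BCAR3 encodes an SH2-domain adaptor that binds the focal adhesion scaffold BCAR1 (p130Cas) and is known for its part in cell motility. ARHGAP29 encodes a GTPase-activating protein, and it is a known YAP target in actin regulation. ABCD3 encodes a fatty acyl transporter of the peroxisome membrane. F3 encodes tissue factor, the membrane receptor that starts the extrinsic coagulation cascade, and it belongs to published lists of YAP and TEAD target genes. BCAR3, ARHGAP29 and F3 are read toward lower coordinates and ABCD3 toward higher ones. In the RefSeq gene order, DNTTIP2, GCLM and ABCA4 lie between BCAR3 and ARHGAP29, and SLC44A3 follows F3.

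Both lists had a peak just upstream of the F3 start and just upstream of the BCAR3 start, while neither had one within 10 kb of the ABCD3 start. The 250 bases upstream of annotated starts of these genes are shown for that reason, from RefSeq on GRCh38.p14, 5′ to 3′ on the strand of the gene. Capitals mark matches to the core TEAD motif GGAATG, read on either strand, or to the AP-1 motif TGANTCA, which reads the same on both strands. All 4 member genes matched the RefSeq table. The first line is the only F3 start listed (chr1:94541760-94542009, minus strand). The next lines are the 3 outermost of the 10 BCAR3 starts listed, called outermost (chr1:93848152-93848401), middle (chr1:93847220-93847469) and inner (chr1:93845911-93846160), all on the minus strand. Which of them is the hg19 start used here was not determined, since coordinates were not moved between builds. The last is the only ABCD3 start (chr1:94418139-94418388, plus strand).
F3: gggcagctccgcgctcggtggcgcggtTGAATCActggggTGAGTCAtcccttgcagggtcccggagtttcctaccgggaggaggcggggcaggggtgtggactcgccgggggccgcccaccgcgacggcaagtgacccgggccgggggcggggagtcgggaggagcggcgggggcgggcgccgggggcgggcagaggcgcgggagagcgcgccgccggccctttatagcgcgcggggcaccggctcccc
BCAR3 outermost: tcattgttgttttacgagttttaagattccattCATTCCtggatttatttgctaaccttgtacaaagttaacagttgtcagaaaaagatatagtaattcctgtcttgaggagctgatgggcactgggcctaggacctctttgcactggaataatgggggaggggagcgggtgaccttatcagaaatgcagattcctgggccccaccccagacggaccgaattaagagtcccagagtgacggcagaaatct
BCAR3 middle: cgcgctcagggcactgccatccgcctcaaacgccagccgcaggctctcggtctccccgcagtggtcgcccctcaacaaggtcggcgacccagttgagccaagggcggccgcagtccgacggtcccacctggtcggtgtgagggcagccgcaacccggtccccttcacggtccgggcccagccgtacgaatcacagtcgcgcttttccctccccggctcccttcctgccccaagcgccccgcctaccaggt
BCAR3 inner: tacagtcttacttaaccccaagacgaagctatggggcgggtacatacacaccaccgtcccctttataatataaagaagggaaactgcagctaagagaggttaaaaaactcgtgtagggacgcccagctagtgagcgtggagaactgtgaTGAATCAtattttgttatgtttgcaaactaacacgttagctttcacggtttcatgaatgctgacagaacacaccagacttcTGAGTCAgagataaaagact
ABCD3: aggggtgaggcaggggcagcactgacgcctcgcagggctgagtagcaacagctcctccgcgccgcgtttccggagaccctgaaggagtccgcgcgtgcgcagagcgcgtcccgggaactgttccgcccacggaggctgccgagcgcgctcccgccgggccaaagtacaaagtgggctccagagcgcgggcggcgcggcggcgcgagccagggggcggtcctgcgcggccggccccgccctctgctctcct

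The F3 promoter held 2 AP-1 matches, with first bases 223 and 210 bases before the start, and no match to the TEAD core. Among 34788 distinct RefSeq promoters cut to the same 250 bases, 6.59% held an AP-1 match and 0.405% held 2 or more. The outermost BCAR3 promoter held 1 TEAD core match, which begins 217 bases before its start, and 11.9% of all promoters held at least 1. The inner BCAR3 promoter held 2 AP-1 matches, at 101 and 20 bases before its start, and the middle one held neither motif. Of the 10 BCAR3 promoters, 2 held a TEAD core match and 2 held an AP-1 match. Neither motif was found in the ABCD3 window or in the 2 ARHGAP29 windows. A match is a run of letters and not a binding site, and a window without one says nothing about the factor. The peaks are on hg19, so none of these windows was placed inside or outside a peak. By distance from the hg19 start used here, the F3 peaks began 261 bp (MKN28) and 407 bp (SNU216) upstream, beyond 250 bases. The BCAR3 peaks began 212 bp upstream in both lists. The F3 matches are therefore not read as part of these peaks.

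MKN28 had 6.58 peaks per 100 kb over the region and SNU216 had 2.58. Windows of the same length were stepped by 100 kb along chromosomes 1 to 22 and X, giving 30101 windows with a median of 12 MKN28 and 3 SNU216 peaks. At least 79 MKN28 peaks were found in 9 of these windows, of which 7 lay away from the region. The fullest, with 92 MKN28 peaks, was on chromosome 20 (48.2 to 49.4 Mb). On a fixed grid of 1 Mb the region's first 1 Mb, with 66 MKN28 peaks, was the fullest, so its place as the densest MKN28 window holds for that grid and not for sliding windows. At least 31 SNU216 peaks were found in 34 of the 30101 windows (0.113%), and the highest count was 44. That share is no independent support, because windows rich in MKN28 peaks were also rich in SNU216 peaks. The 12 windows elsewhere with at least 70 MKN28 peaks, some of which overlap each other, held 16 to 33 SNU216 peaks with a median of 28, and 4 of them held at least 31. In the 94 to 95 Mb grid window, 19 SNU216 peaks were called, a count matched or passed by 32 other grid windows.

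**Figure D1:**
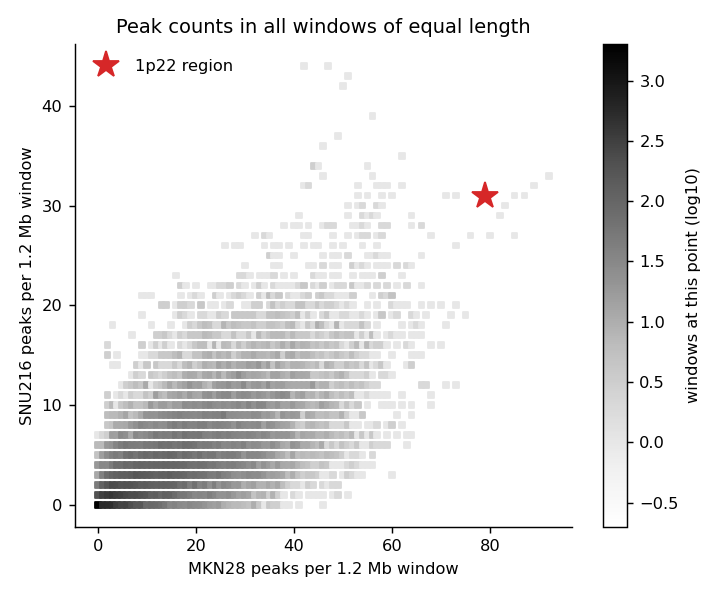
Number of MKN28 peaks (horizontal axis) and SNU216 peaks (vertical axis) in each 1.2 Mb window of the genome, with darker squares for more windows on a log10 scale and a star for the region of BCAR3, ARHGAP29, ABCD3 and F3. The star, at 79 MKN28 and 31 SNU216 peaks, sits in the sparse upper right, with a few windows further out on either axis.

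The flanks held fewer peaks over the same length. The 1.2 Mb before the region held 34 MKN28 and 2 SNU216 peaks, and the 1.2 Mb after it held 30 MKN28 and 3 SNU216 peaks. At the lower border, the MKN28 peak just outside was 23.6 kb away with a score of 103, and the first one inside, in BCAR3, scored 60.9. The neighbouring SNU216 peaks were 196 kb outside (score 115) and, inside, at chr1:94158850-94159236 (score 196). At the upper border, the last MKN28 peak inside scored 202 and the next one, 1.31 kb outside, scored 133. The last SNU216 peak inside scored 275 and the next one was 129.8 kb outside with a score of 101. MKN28 peaks went on past this border, with 10 in the 135 kb up to the next SNU216 peak, or 7.41 per 100 kb. The choice of border therefore cuts through a stretch dense in MKN28 peaks.

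MKN28 peaks were most numerous on BCAR3 and between BCAR3 and ARHGAP29, and SNU216 peaks upstream of F3 and on BCAR3. Few peaks of either line fell inside ARHGAP29 or ABCD3 and none inside F3. These are counts over spans of unequal length. Per 100 kb, MKN28 had 12.6 peaks on BCAR3, 5.91 between BCAR3 and ARHGAP29, and 6.75 upstream of F3. It had 2.91 in ARHGAP29 and 1.99 in ABCD3, while the median 1.2 Mb window of the genome held 12. SNU216 had 2.80, 0.932, 6.23, 1.45 and 0 per 100 kb in the same order. The BCAR3 span (chr1:94027347-94312706, 285 kb) held 36 MKN28 and 8 SNU216 peaks. The interval from BCAR3 to ARHGAP29 (322 kb) held 19 MKN28 and 3 SNU216 peaks. The ARHGAP29 span (chr1:94634463-94703307) held 2 MKN28 peaks and 1 SNU216 peak, and the interval from there to ABCD3 (181 kb) held 6 in each list. The ABCD3 span (chr1:94883933-94984219) held 2 MKN28 and 0 SNU216 peaks. The 10.5 kb between ABCD3 and F3 held 1 peak in each list, and the F3 span (chr1:94994732-95007413) held 0 in both. From the F3 start to the end of the region (193 kb), 13 MKN28 and 12 SNU216 peaks were called. No peak lay in the 27.3 kb before BCAR3. BCAR3 thus carried 45.6% of the MKN28 and 25.8% of the SNU216 peaks of the region, and the stretch upstream of F3 carried 16.5% of the MKN28 and 38.7% of the SNU216 peaks.

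**Figure D2:**
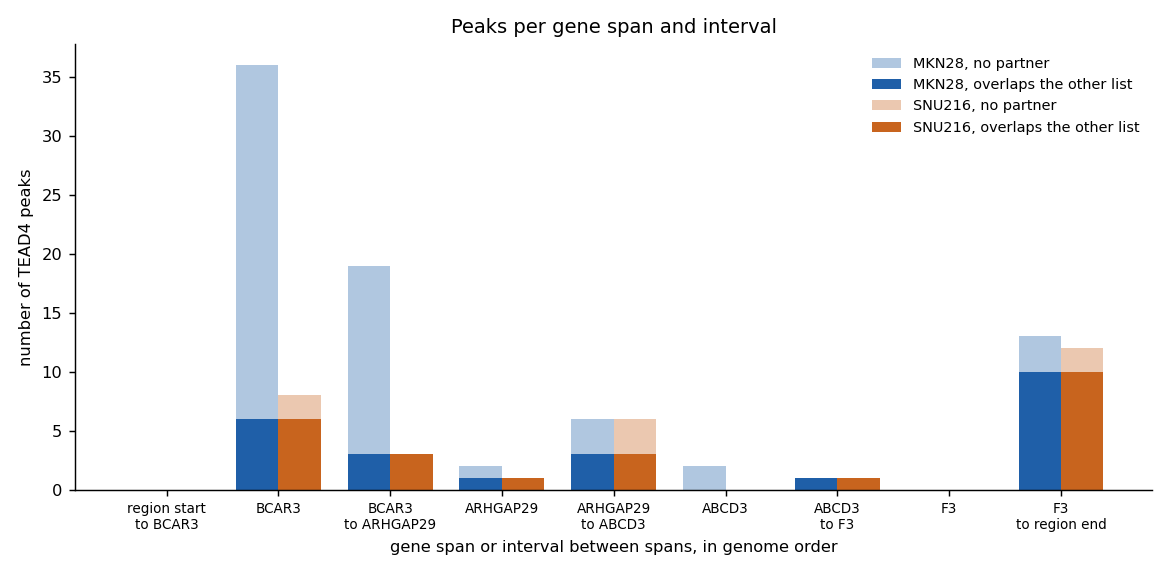
Number of TEAD4 peaks in each gene span and each interval between spans, in genome order, for MKN28 (blue, left bars) and SNU216 (orange, right bars); dark parts overlap a peak of the other list and pale parts do not. MKN28 leads in BCAR3 (36 against 8) and from BCAR3 to ARHGAP29 (19 against 3), while the counts upstream of F3 are 13 and 12.

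Many sites of the region were called in both lines. An overlap of at least 1 bp with an SNU216 peak was found for 24 of the 79 MKN28 peaks (30.4%, exact Clopper-Pearson 95% interval 20.5 to 41.8), against 17.1% of the whole MKN28 list. In the other direction it was found for 24 of the 31 SNU216 peaks (77.4%, 58.9 to 90.4), against 59.3% of the whole SNU216 list. The first interval lay above its whole-list share and the second held it. With midpoints within 200 bp the MKN28 interval again lay above the whole-list share (25.3%, 16.2 to 36.4, against 16.0%). In the settings that follow, the MKN28 share was still the higher, but its interval held the whole-list share. The lower bound lay very close to that share both at 200 bp and with scores of 100 or more. The intervals therefore do not separate these 2 settings. The peaks of the region scored above the middle of their lists, with a median percentile of 72.9 in MKN28 and 58.1 in SNU216. When only peaks scoring 100 or more were kept in both lists, 15 of 53 MKN28 peaks had a partner (28.3%, 16.8 to 42.3), against 16.8% of all such peaks. For SNU216 it was 15 of 16 peaks (93.8%, 69.8 to 99.8), against 68.7%. The MKN28 interval now held its whole-list share, and the SNU216 interval lay just above its own. When 50% of both peaks had to overlap, the shares were 17.7% in MKN28 (10.04 to 27.9) and 45.2% in SNU216 (27.3 to 64.0), against 14.1% and 48.2% over the whole lists. With the MKN28 list shortened to the length of the SNU216 list, the MKN28 share was 43.9% (28.5 to 60.3), against 35.2% of the shortened list. The SNU216 share was then 58.1%, and its interval (39.1 to 75.5) lay above the 36.1% of the whole SNU216 list. With midpoints within 200 bp (64.5%, 45.4 to 80.8, against 54.6%) and with 50% overlap, the SNU216 interval held its whole-list share. Neighbouring peaks are not independent, so these intervals are narrower than the true uncertainty.

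MKN28 peaks with a partner scored higher than those without one, with medians of 358 over 24 peaks and 132 over 55 peaks. For SNU216 the medians were 120 (24 peaks) and 68.2 (7 peaks). Scores are the authors' and rise with depth, so they are compared below as percentiles within the own list, and raw scores of the lists are only set side by side. A percentile depends on the length of its list, and the lists hold 39477 (MKN28) and 11540 (SNU216) peaks. The top 10% of the own list by score, a background of 10% by definition, held 15 MKN28 peaks (19.0%, 11.03 to 29.4) and 5 SNU216 peaks (16.1%, 5.45 to 33.7).

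**Figure D3:**
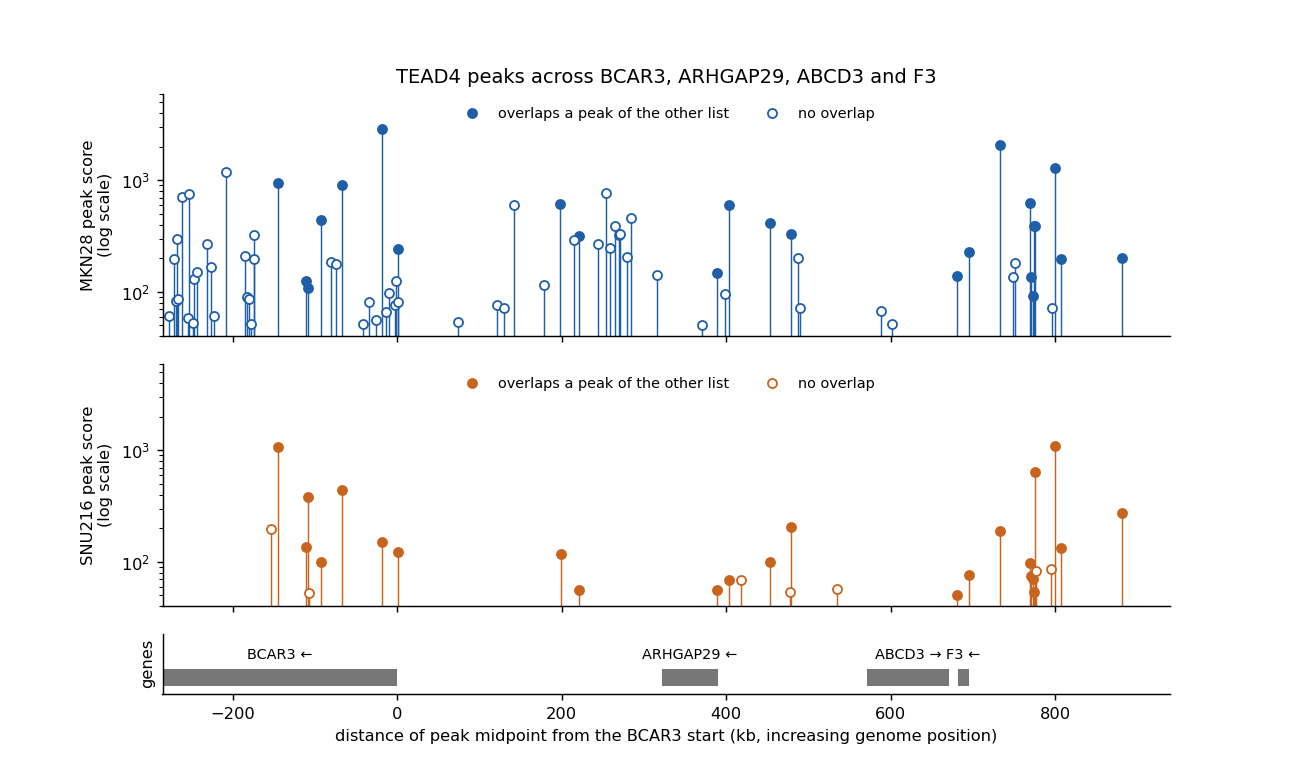
Score of each TEAD4 peak (log scale) against the distance of its midpoint from the BCAR3 start in kb, for MKN28 (top) and SNU216 (middle), with the gene spans and their direction of reading below; filled circles overlap a peak of the other list. MKN28 has 21 peaks in the part of BCAR3 left of the first SNU216 peak, none of them filled, and both lists are crowded to the right of F3.

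At the BCAR3 start the lists agreed closely in position. The MKN28 peak (chr1:94312918-94313416) spanned 212 to 710 bp upstream of the start and scored 244, and the SNU216 peak (chr1:94312918-94313399) spanned 212 to 693 bp upstream and scored 123. These scores were at percentile 80.0 of the MKN28 list and 66.4 of the SNU216 list. Within 10 kb of the start there were 4 MKN28 peaks and 1 SNU216 peak.

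The strongest MKN28 site of the region lay inside BCAR3, 18.9 kb from that start. This peak (chr1:94293183-94294450) scored 2870.2 and ranked 24 of 39477. Its SNU216 partner (chr1:94293840-94294400) scored 149 and ranked 3095 of 11540, at percentile 73.2. It was the most uneven pair by raw score, with a ratio of 19.2. Another BCAR3 site was near the top of both lists. It scored 950.4 in MKN28 (chr1:94167121-94167799, percentile 97.7) and 1082 in SNU216 (chr1:94167199-94167776, percentile 99.5, rank 54). A further site (chr1:94244831-94245945 in MKN28) scored 903 in MKN28 and 443 in SNU216, at percentiles 97.5 and 94.8. Another leaned to SNU216, with 107 in MKN28 (chr1:94203691-94204195, percentile 53.5) and 384 in SNU216 (chr1:94203673-94204302, percentile 93.3). The other 2 BCAR3 pairs scored 125 and 444 in MKN28, beside 135 and 100.5 for their SNU216 partners. BCAR3 therefore held paired sites that ranked high in both lists and others that ranked high in 1 of them.

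In the part of BCAR3 far from the start used here, the end of its span, peaks were called in MKN28 alone. RefSeq lists 10 BCAR3 starts, some well inside the gene. The inner ones were not placed on hg19, so these peaks may lie near one of them. A split at the first SNU216 peak of the region, chosen after the peaks were seen, left 132 kb at the 3′ side with 21 MKN28 and 0 SNU216 peaks. The 154 kb on the start side held 15 MKN28 and 8 SNU216 peaks. The 21 MKN28 peaks scored 51.5 to 1182 with a median of 149.7. Of them, 12 scored at least 100, near the whole-list share of 19685 of 39477. The strongest were at chr1:94103810-94105029 (score 1182, percentile 98.6), chr1:94059004-94060491 (749.8, percentile 96.3) and chr1:94049764-94051235 (705, percentile 95.8). The SNU216 list had no peak from chr1:93804331 to chr1:94158849, a gap of 355 kb that held 27 MKN28 peaks, 6 of them before the region. Since the region was chosen for its MKN28 peaks and the gap was picked after they were seen, these counts are a description. A site missing from the SNU216 list was not called in the authors' processing, and TEAD4 may still be bound there.

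Seen as runs of peaks with gaps of at most 12 kb, this part of BCAR3 began with 14 MKN28 peaks over 55.5 kb (chr1:94034510-94089977). A second run of 10 MKN28 peaks over 43.2 kb reached from inside BCAR3 past its start (chr1:94270967-94314123) and contained the 2870.2 peak. In all, 27 MKN28 and 20 SNU216 runs touched the region, of which 13 in MKN28 and 15 in SNU216 were single peaks. Over the whole lists, 7623 of 26274 MKN28 runs and 1665 of 9076 SNU216 runs held at least 2 peaks, and the others were single. With gaps of at most 5 kb there were 45 MKN28 and 22 SNU216 runs.

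Between BCAR3 and ARHGAP29, MKN28 peaks were again more frequent. A run of 8 MKN28 peaks over 41.0 kb (chr1:94556324-94597339) scored 205 to 765 and had no SNU216 peak, the nearest being 22.6 kb or more from each midpoint. Its strongest peak, chr1:94566194-94567819, was at percentile 96.4 and, at 1626 bp, was the widest MKN28 peak of the region. Another MKN28 peak without a partner, chr1:94454242-94455389, scored 597. The SNU216 peaks of this interval were the one at the BCAR3 start and a pair of sites with scores of 117 (chr1:94511097-94511499) and 55.5 (chr1:94533805-94534089). Their MKN28 partners scored 619 and 316. At both sites the MKN28 percentile was the higher, 94.5 against 64.5 and 85.2 against 13.5.

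At ARHGAP29 the peak nearest the start lay inside the gene in both lists. In MKN28 (chr1:94701548-94702614) it spanned 693 to 1759 bp downstream of the start and scored 147, at percentile 65.7. In SNU216 (chr1:94701716-94701997) it spanned 1310 to 1591 bp downstream and scored 55.9, at percentile 14.6. The remaining ARHGAP29 peak, in MKN28, scored 50.6, close to the lowest score of that list. Upstream of ARHGAP29 a shared site scored 600.03 in MKN28 (chr1:94715670-94716461) and 69.1 in SNU216 (chr1:94715977-94716339). Further upstream, shared sites scored 418 and 329 in MKN28, beside 100.5 and 206 in SNU216. The 3 pairs upstream of ARHGAP29 each had the higher percentile in MKN28. On the other side of the gene, the nearest peaks were found in MKN28 alone.

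ABCD3, the peroxisomal transporter, had few peaks for this region, and they were weak. The 2 MKN28 peaks in it scored 68.1 (chr1:94900810-94901254) and 51.5, both without a partner. The peak nearest the ABCD3 start was 17.1 kb downstream in MKN28 and 36.7 kb upstream in SNU216 (chr1:94847076-94847376, score 56.5). The site between ABCD3 and F3 scored 139 in MKN28 (chr1:94992845-94993641) and 50.4 in SNU216 (chr1:94993245-94993578), at percentiles 63.8 and 0.832.

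F3, the tissue factor gene, had no peak inside its span, which at 12.7 kb is short, so this says little. The peaks nearest its start lay upstream, and the site between ABCD3 and F3 lay beyond its other end. The nearest MKN28 peak (chr1:95007674-95008345) spanned 261 to 932 bp upstream of the start and scored 227, at percentile 78.3. The nearest SNU216 peak (chr1:95007820-95008403) spanned 407 to 990 bp upstream and scored 76.9, at percentile 43.9. Each list had no other peak within 10 kb of the F3 start.

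In the stretch beyond the F3 start, 10 of 13 MKN28 and 10 of 12 SNU216 peaks were paired. The second strongest MKN28 site of the region was here (chr1:95045239-95046124), with a score of 2093 and rank 83. Its SNU216 partner (chr1:95045401-95046079) scored 189.7, at percentile 80.3. The strongest SNU216 site of the region (chr1:95111544-95112306) scored 1091 and ranked 52, and its MKN28 partner (chr1:95111482-95112695) scored 1282, at percentile 98.9. Between them lay a run of 5 MKN28 peaks over 7.15 kb and 6 SNU216 peaks over 7.71 kb (chr1:95081731-95088883 in MKN28). In that run, the site at chr1:95088132-95088883 scored 386 in MKN28 and 644 in SNU216, at percentiles 88.6 and 97.6. The site at chr1:95081731-95082621 scored 622 in MKN28 and 96.7 in SNU216, at percentiles 94.6 and 56.4. The last shared site, chr1:95193313-95194046 in MKN28, scored 202 in MKN28 and 275 in SNU216, and its SNU216 peak of 1248 bp was the widest SNU216 peak of the region.

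**Figure D4:**
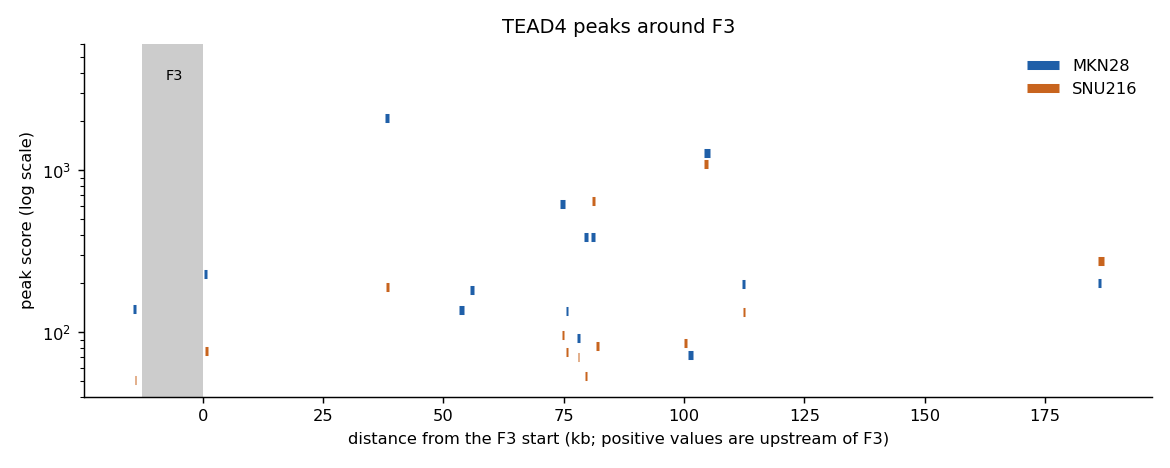
TEAD4 peaks from the interval before F3 to the end of the region, drawn as bars of their true width at their score (log scale), against the distance from the F3 start in kb, with MKN28 in blue, SNU216 in orange and the F3 span in grey. Peaks of both lines stand side by side just upstream of the start, and sites of both recur upstream of it, with the highest SNU216 score of 1091 beside an MKN28 score of 1282.

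Of the 31 SNU216 peaks, 7 had no MKN28 peak (22.6%, 9.59 to 41.1), against 40.7% of the whole SNU216 list, a share that the interval holds. The strongest was in BCAR3 at chr1:94158850-94159236 (score 196, percentile 81.1), 8.42 kb from the nearest MKN28 midpoint. The next were upstream of F3 at chr1:95107446-95107938 (85.7) and chr1:95089184-95089679 (81.96), 1.07 and 0.924 kb from an MKN28 midpoint. The one at chr1:94730759-94731168, upstream of ARHGAP29, scored 68.2. The other 3 scored 52.9, 53.5 and 56.5. All but the BCAR3 one thus scored under 100.

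Over the 24 pairs, the MKN28 peak had the higher percentile within its own list in 18 and the SNU216 peak in 6. This count depends on the unequal list lengths, since by rank from the top the SNU216 peak stood higher in most pairs. At the BCAR3 start the ranks were 7902 of 39477 in MKN28 and 3879 of 11540 in SNU216. The 2870.2 peak led by both measures, with rank 24 against 3095. The difference of MKN28 minus SNU216 percentile had a median of 20.004 and ran from -39.8 to 78.5. Over all 6841 pairs of the genome the median was 8.90, with the MKN28 percentile higher in 4588 of them (67.1%). Each SNU216 peak was taken with its best MKN28 partner, which can favour MKN28 over the whole lists. In the region the 24 pairs used 24 distinct MKN28 peaks, the only MKN28 peaks there with a partner. The 6 pairs with the higher SNU216 percentile were 3 in BCAR3 and 3 upstream of F3. In 19 of the 24 pairs the SNU216 peak lay wholly inside the MKN28 peak. The share over all pairs is not given here, and MKN28 peaks are the wider over the whole lists (medians of 525 and 408 bp). The count is therefore not read as a trait of the region.

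**Figure D5:**
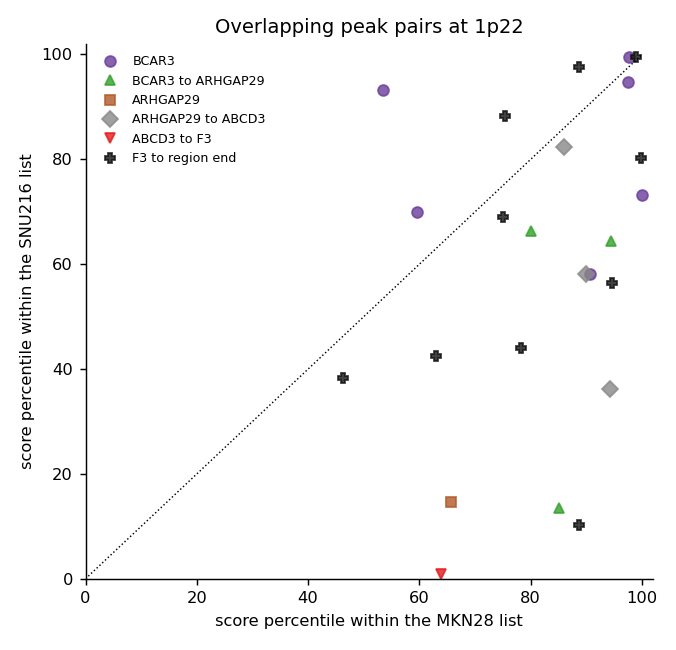
Score percentile of each of the 24 overlapping pairs within the MKN28 list (horizontal axis) and within the SNU216 list (vertical axis), with a symbol for each gene span or interval and a dotted line of equality. The line has 18 pairs below it, where the MKN28 percentile is higher, and 6 above it, from BCAR3 and upstream of F3.

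MKN28 peaks of the region were wide. Their median width was 756 bp, against 525 bp over the whole MKN28 list, and SNU216 peaks had a median of 444 bp, against 408 bp. A width of 1 kb or more was found for 22 MKN28 peaks (27.8%, 18.3 to 39.1), against 4.05% of the list, and for 1 SNU216 peak, against 1.4%. To allow for differences in score, each width was also set against the median width of peaks with a similar score in the own list, as a ratio. That ratio had a median of 1.32 in MKN28, with 66 of 79 peaks above 1, and 1.01 in SNU216, with 16 of 31 above 1. Over each whole list its median is 1 by construction, so the SNU216 count is near the background. In MKN28 it was 1.44 for the 21 peaks of the 3′ part of BCAR3, 1.05 for the other 15 BCAR3 peaks, 1.52 between BCAR3 and ARHGAP29, and 1.19 upstream of F3. It was 1.26 for the 2 peaks in ABCD3 and 1.44 for the single peak between ABCD3 and F3. It was 1.10 in the 1.2 Mb before the region and 1.202 in the 1.2 Mb after it. Local DNA copy number and background were not measured in these lists, and their part in the counts was not tested.

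The fullest MKN28 windows of the same length that overlapped neither the region nor each other, on chromosomes 20 (48.2 to 49.4 Mb), 17 (72.9 to 74.1 Mb) and 19 (47.3 to 48.5 Mb), had 92, 70 and 70 MKN28 peaks and 33, 20 and 16 SNU216 peaks. The share of MKN28 peaks with a partner was 28.3%, 22.9% and, for the last window, 14 of 70. That last share lay just under the lower bound of 20.5% at 1p22, and the other shares lay inside the interval there. The MKN28 median score was 183 in the 1p22 region and 124, 121 and 119 in those windows. The like-score width ratio of MKN28 was 1.24, 1.06 and 1.10 in the 3 windows, against 1.32 at 1p22. In SNU216 that ratio was 1.297 in the chromosome 20 window and 1.01 at 1p22. These differences have no replicate check.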

How the data were processed

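The authors deposited 1 peak list per TEAD4 library with a position and a score per peak; per the labels' processing notes, CASAVA 1.8, Bowtie2 2.0.0, MACS and hg19 were used. For the score's scale, the MACS settings and the filters on reads or duplicates, the sources used here give nothing. Such a score rises with depth. Input libraries were not analysed here.

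Positions were made 1-based, and peaks were assigned to gene spans (hg19) by midpoint. Overlap meant at least 1 shared bp, and the highest-scoring partner was used. Percentiles and width ratios (50 groups by score rank) were taken within a list. Named peaks were the 10 highest-scoring of each list, the top of each gene or interval, those nearest gene starts, and the 5 highest without a partner. No hg19 genome was used, so peak motifs were not searched. Gene directions, gene order and promoters came from RefSeq on GRCh38.p14, with no conversion. Members, lists and rules were chosen with earlier results of these data known. The procedures were tested on simulated data. Python 3.11.15, numpy 2.4.6, pandas 2.3.3, scipy 1.17.1 and matplotlib 3.10.9 were used.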

Additional observations from a re-analysis of the deposited data

How the results depend on the processing

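Of 66 values recomputed under alternatives, 41 stayed within 1.5 times the count or inside the interval, and 25 moved. Some of the 41 were fixed in advance. Shortening the MKN28 list leaves the SNU216 counts unchanged, and a count of 0 stays 0 when peaks are removed. With an MKN28 list as long as the SNU216 list, 41 MKN28 peaks remained in the region and 15 in BCAR3, 0 in ARHGAP29 and 0 in ABCD3, and partners were found for 43.9% of MKN28 peaks (35.2% of that list) and 58.1% of SNU216 peaks (36.1%). With a score of at least 100, 16 SNU216 peaks remained, 93.8% with a partner; BCAR3 kept 21 MKN28 peaks, ARHGAP29 1 MKN28 and 0 SNU216 peaks, and ABCD3 0 MKN28 peaks. From 94 to 95 Mb only, SNU216 had 19 peaks. With 50% overlap of both peaks, the shares were 17.7% in MKN28 and 45.2% in SNU216. With spans widened by 10 kb, ARHGAP29 had 4 MKN28 peaks, ABCD3 1 SNU216 peak, and F3 2 in each list. Gaps of at most 5 kb gave 45 MKN28 runs. The direction of the moves in peak and run counts was fixed by fewer peaks, a shorter region, wider spans or smaller gaps. The falls in share with 50% overlap, and in SNU216 with the shortened MKN28 list, were also fixed in direction. The rises in share, to 93.8% in SNU216 and 43.9% in MKN28, were not fixed by construction. The comparison of window grids was added after seeing the data. The motif alternative needs an hg19 genome and was not run. No paired analysis was possible because each line has 1 library; for the same reason no replicate could be left out. Depth is unknown, so its part in peaks found in 1 list alone was not tested.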
